A study of Mus musculus with 2 samples.

Results

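The microRNA (miRNA) genes described here are the imprinted ones that lie outside the large Dlk1-Dio3 miRNA region of chromosome 12: Mir335 in the Mest locus, Mir296 and Mir298 in the Nespas/Gnas locus, Mir483 in Igf2 and Mir675 in H19. They were picked by gene symbol, with no filter on counts but with earlier results of these data known. All 5 were found among the 1973 miRNA gene identifiers of the deposited tables. The tables come from microRNA-seq, which reads the RNA molecules under 30 nucleotides of a tissue. The tissue was the whole stomach of newborn (postnatal day 0) mice of the inbred B6NCrl strain, with no treatment or engineered allele named in the labels and with sex not collected. The 2 libraries were made from 2 pups of the same dam, so they form 1 group and every spread below is that between 2 littermates.

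Imprinted genes are expressed from a single parental copy, and many of them act on growth before and around birth. The hosts of these miRNA genes are classic examples: Mest and Igf2 are read from the paternal chromosome and H19 from the maternal one, while Nespas is a paternally read RNA antisense to part of the Gnas locus. A miRNA is cut from a hairpin within a longer transcript, and bases 2 to 8 of the mature molecule, its seed, pair with target mRNAs. Igf2 encodes a growth factor and H19 a long non-coding RNA that is abundant in fetal tissue. Mest encodes a protein of the alpha/beta hydrolase fold, and Gnas the stimulatory G-protein subunit that couples receptors to cyclic AMP. The counts carry no parental allele, so they measure the level of each hairpin and not its imprinting.

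The 5 hairpins differ in sequence, and their mature molecules are shown because the counts cannot be read arm by arm: the deposited value of a gene sums all reads over its hairpin. All 5 genes were matched by symbol in the RefSeq miRNA table (GRCm38.p6), with 10 mature miRNAs. Capitals mark the seed, and each sequence runs 5′ to 3′.
miR-335-5p: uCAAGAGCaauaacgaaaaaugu
miR-335-3p: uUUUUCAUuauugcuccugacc
miR-296-5p: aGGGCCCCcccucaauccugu
miR-296-3p: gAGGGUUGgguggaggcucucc
miR-298-5p: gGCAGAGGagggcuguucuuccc
miR-298-3p: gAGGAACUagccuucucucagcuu
miR-483-5p: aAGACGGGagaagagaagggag
miR-483-3p: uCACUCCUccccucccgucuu
miR-675-5p: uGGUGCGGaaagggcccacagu
miR-675-3p: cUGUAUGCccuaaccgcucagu

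No seed was shared between these molecules, and none of the 10 shared bases 2 to 8 with another mature miRNA of the table. Over the whole table, 1214 of 1674 distinct mature sequences (72.5%) had a seed of their own. Matching bases 2 to 7 alone, 6 of the 10 stood alone, against 47.8% over the table. The other 4 each had 1 partner: Mir7646 for miR-335-5p, Mir6986 for miR-335-3p, Mir5621 for miR-296-5p and Mir3110 for miR-483-3p. Of these partners, Mir6986 had 3 counts in pup 1 and 2 in pup 2, Mir3110 had 1 in each pup, and Mir5621 had 0 in pup 1 and 1 in pup 2. Mir7646 was not analysed here. None of the 3 analysed partners reached the detection minimum.

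The annotated hairpins, which are the features the reads were counted over, are printed with both mature arms in capitals.
Mir335: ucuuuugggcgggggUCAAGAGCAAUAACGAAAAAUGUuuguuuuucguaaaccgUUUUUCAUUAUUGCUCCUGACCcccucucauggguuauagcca
Mir296: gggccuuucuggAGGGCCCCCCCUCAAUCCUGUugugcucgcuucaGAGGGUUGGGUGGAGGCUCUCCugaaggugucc
Mir298: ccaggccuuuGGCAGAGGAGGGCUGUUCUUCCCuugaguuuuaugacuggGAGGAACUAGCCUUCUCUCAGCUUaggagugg
Mir483: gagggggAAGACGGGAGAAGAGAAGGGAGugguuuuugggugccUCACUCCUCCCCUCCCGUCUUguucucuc
Mir675: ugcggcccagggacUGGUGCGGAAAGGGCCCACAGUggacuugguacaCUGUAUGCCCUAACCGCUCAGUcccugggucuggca

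Mir335 (ENSMUSG00000065501.1) occupies positions 30741299 to 30741396 of chromosome 6, plus strand (GRCm38), inside Mest. It is intronic in each of the 7 Mest transcripts that span it, 17.8 kb from the annotated start of the gene. Mir483 (ENSMUSG00000070140.1) occupies positions 142654924 to 142654996 of chromosome 7, minus strand, and is intronic in all 7 Igf2 transcripts that span it. The annotated gene Gm49394 encloses the same hairpin on the same strand. Mir675 (ENSMUSG00000076275.1) lies on that strand too, at 142577064 to 142577147, which is 77.8 kb from Mir483. It overlaps an exon in 3 of the 4 H19 transcripts that span it and sits 0.996 kb from the annotated start of H19, so its host sequence is part of the spliced RNA in those 3.

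Mir296 (ENSMUSG00000065521.1) and Mir298 (ENSMUSG00000065410.1) are neighbours on chromosome 2, minus strand, where they occupy 174267047 to 174267125 and 174267504 to 174267585. Only 378 nt separate them. No annotated gene encloses either hairpin on its strand. Both lie beyond the annotated 3′ end of Nespas on the Nespas strand, Mir298 by 13.7 kb and Mir296 by 14.1 kb. The single other annotated miRNA gene of the tables within 100 kb of any of the 5, apart from these genes themselves, was Gm27591 on the opposite strand, 19.1 kb from Mir296. It had 0 counts in both pups.

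**Figure D1:**
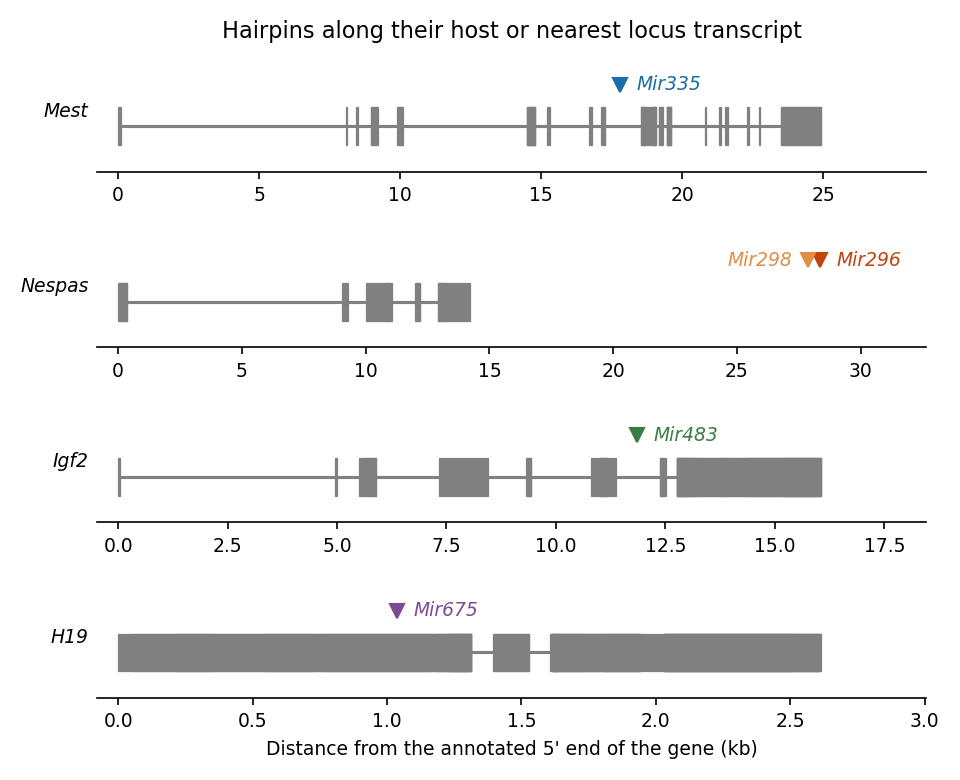
Positions of the 5 hairpins (triangles) along Mest, Nespas, Igf2 and H19, each drawn from the gene's annotated 5′ end in kb, with grey boxes for exons of any annotated transcript and a line for the extent of the gene. Mir335 and Mir483 fall between exons, Mir675 falls on an exon 0.996 kb from the start of H19, and Mir298 and Mir296 lie 13.7 and 14.1 kb beyond the end of Nespas.

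The libraries held 4463355 counts on the genes' own strand in pup 1 and 3454655 in pup 2, and levels are given as counts per 1000000 of these (CPM). As a check of the labelled organ, smooth muscle (Mir143, Mir145a), squamous epithelium (Mir203, Mir205, Mir31), glandular epithelium (Mir192, Mir194-1, Mir194-2, Mir215) and endocrine (Mir375) genes were detected, 10 of 10, with summed levels from 7154 CPM for Mir375 in pup 2 to 256110 CPM for smooth muscle in pup 1. The pancreatic genes Mir216a, Mir216b and Mir217 had 0 of 3 detected and summed to 2.69 CPM in pup 1 and 2.61 CPM in pup 2. The liver gene Mir122 was detected too (1 of 1), at 205 and 255 CPM in pups 1 and 2. So were the skeletal muscle genes Mir206 and Mir133b (2 of 2), which summed to 101 and 269 CPM. The part of pancreas, liver and skeletal muscle in the levels below was not tested. In whole stomach, fewer cells that use a gene and fewer miRNA molecules per cell cannot be told apart.

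All 5 genes were detected in the newborn stomach, and Mir335 stood far above the rest. Each passed the detection minimum of 10 own-strand counts in both libraries, which 15.5% of all identifiers passed. Together they held 2.07% of own-strand counts in pup 1 (exact 95% binomial interval 2.06% to 2.08%) and 2.24% in pup 2 (2.22% to 2.25%). Mir335 alone made up 88.1% of that sum in pup 1 and 88.9% in pup 2. Without it, in list and total, the other 4 held 0.252%.

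Mir335, an miRNA known to target Rb1 in mouse cells and studied as a suppressor of metastasis in human tumours, had 81321 counts in pup 1 and 68724 in pup 2. These are 18220 CPM (exact 95% Poisson interval 18095 to 18345) and 19893 CPM (19745 to 20042). It ranked 13th in pup 1 and 12th in pup 2 of all miRNA genes. Its mean of 19056 ± 1183 CPM (SD, n = 2) was 115 times the median of the 305 detected genes, 166 CPM. Multimapping reads, 26.0% of table reads in pup 1 and 25.7% in pup 2, were counted for no gene. Genes that share a stretch with another hairpin can lose reads this way, so the rank and this ratio may be too high. The size of that effect was not tested. 1 read of pup 1 and none of pup 2 lay on the strand opposite to Mir335, and the other members had 0 such reads in both pups.

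The pair from the Nespas/Gnas locus stood at moderate levels. Mir296, an miRNA known in mouse embryonic stem cells as a regulator of Nanog, had 4661 counts in pup 1 and 3308 in pup 2, or 1044 and 958 CPM. Mir298, known to target mouse Bace1, had 2970 and 2243 counts, or 665 and 649 CPM. In CPM, which scales by total counts, the pups' values of Mir298 were the closest among the 5 genes, with a coefficient of variation of 1.74%. This depended on the scaling: after TMM scaling Mir335 was the closest (log2 ratio of pup 1 over pup 2 -0.02, beside 0.14 for Mir298). Mir296 was the higher of the neighbours in both pups, 1.57-fold in pup 1 (exact 95% interval 1.498 to 1.64) and 1.47-fold in pup 2 (1.40 to 1.56). The mean log2 ratio of 0.61 ± 0.06 (SD, n = 2) was larger than its spread between pups.

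The genes of the Igf2 and H19 domain differed by an order of magnitude. Mir483, which lies in the growth factor gene and is raised with it in human Wilms tumours, had 3122 counts in pup 1 and 2741 in pup 2, or 699 and 793 CPM. Mir675, known from mouse placenta as a limiter of growth that acts on Igf1r, had 271 and 247 counts, or 60.7 CPM (53.7 to 68.4) and 71.5 CPM (62.9 to 81.0). Mir675 was the single member under the median of detected genes, at 0.399 of it. Mir483 exceeded Mir675 11.5-fold in pup 1 (exact 95% interval 10.2 to 13.1) and 11.1-fold in pup 2 (9.74 to 12.7), a log2 ratio of 3.50 ± 0.04 (SD, n = 2). By locus, the Nespas/Gnas pair held 0.171% of own-strand counts in pup 1 and 0.161% in pup 2, and the Igf2 and H19 pair held 0.0760% and 0.0865%.

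**Figure D2:**
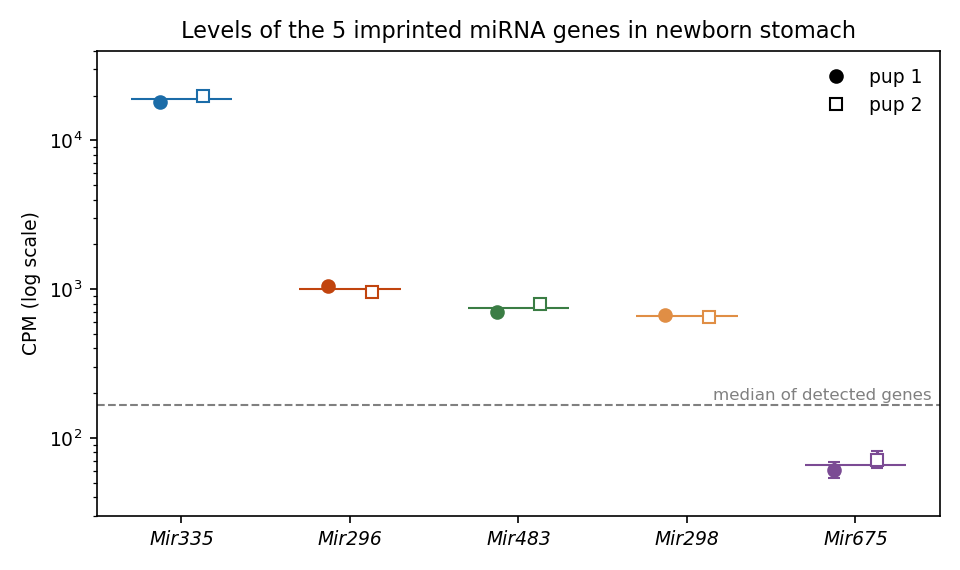
Level in CPM (log axis) of each gene in pup 1 (filled circle, left) and pup 2 (open square, right), with exact 95% Poisson intervals where larger than the symbol, the mean of both pups as a horizontal line and the median of detected genes (166 CPM) dashed. Mir335 lies near 19056 CPM, Mir296, Mir483 and Mir298 lie between 649 and 1044 CPM, and Mir675 lies below the dashed line.

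The order of mean levels in CPM was Mir335, Mir296, Mir483, Mir298 and Mir675, and no gene's pair of pup values overlapped that of the next. Mir335 exceeded Mir296 by a log2 ratio of 4.25 ± 0.18 (SD, n = 2), a 19.04-fold difference. Mir298 exceeded Mir675 by 3.32 ± 0.19. The middle of the order was tighter: Mir296 over Mir483 gave 0.42 ± 0.22 and Mir483 over Mir298 gave 0.18 ± 0.15. For this last pair the ratio in pup 1 was 1.05, with an exact 95% interval of 0.999 to 1.11 that includes equal counts, and in pup 2 it was 1.22 (1.16 to 1.29). With 2 libraries the smallest two-sided p of an exact permutation test of such a ratio is 0.5, so these ratios are set against their SD only.

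A small-RNA read covers a mature miRNA from end to end, so CPM is not divided by length here. Per nucleotide of the annotated hairpin, which ranges from 73 nt in Mir483 to 98 nt in Mir335, the order stayed the same. The mean levels were then 194 CPM per nt for Mir335, 12.7 for Mir296, 10.2 for Mir483, 8.02 for Mir298 and 0.787 for Mir675.

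**Figure D3:**
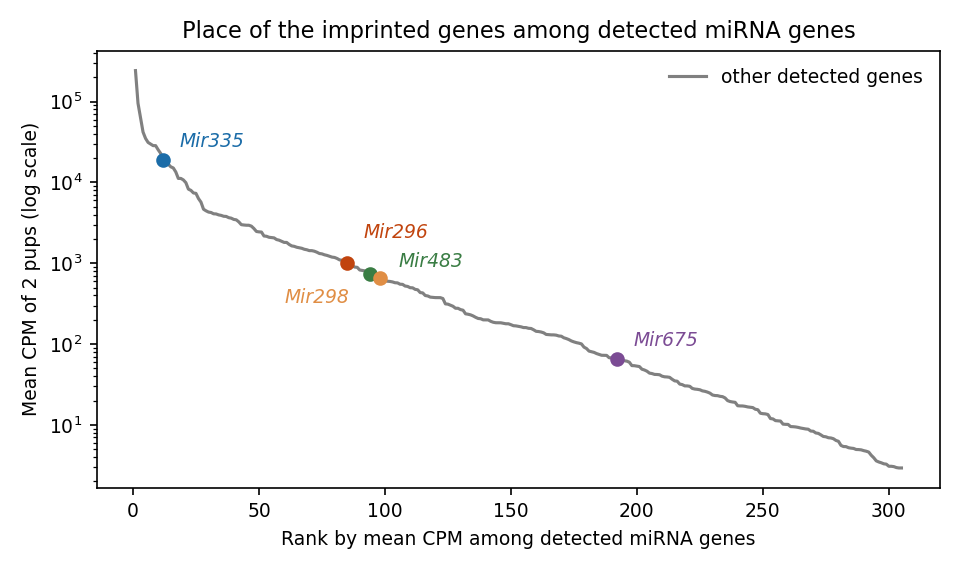
Mean CPM of both pups (log axis) against rank for the 305 detected miRNA genes (grey line), with the 5 imprinted genes as coloured points. They take ranks 12 (Mir335), 85 (Mir296), 94 (Mir483), 98 (Mir298) and 192 (Mir675).

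The genes with the most similar levels were those at the smallest distance in log2(CPM + 1) over both pups. For Mir335 these were Mir10a (distance 0.23; 19159 CPM in pup 1 and 17068 in pup 2), Mir205 (0.28) and Mir23b (0.38). For Mir296 they were Mir27a (0.09), Mir872 (0.19) and Mir532 (0.26), and for Mir483 they were Mir615 (0.15), Mir15b (0.16) and Mir107 (0.16). Mir298 was nearest to Mir542 (0.09), Mir467d (0.16) and Mir615 (0.17). Mir675 was nearest to Mir153 (0.06; 63.0 and 69.8 CPM), Mir770 (0.09) and Mir199a-2 (0.13). With 2 libraries this distance says that the levels were alike and nothing more. Mir23b, Mir27a, Mir107, Mir467d and Mir199a-2 have 20 nt or more in common with a second annotated hairpin, which can send reads of theirs to the multimapping row.

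All 5 genes lay within a ratio of 1.5 between the pups by value. After TMM scaling, the log2 ratio of pup 1 over pup 2 was 0.23 for Mir296 (exact 95% interval 0.16 to 0.29), 0.14 for Mir298 (0.06 to 0.22), -0.02 for Mir335 (-0.04 to -0.01), -0.08 for Mir483 (-0.15 to -0.00) and -0.13 for Mir675 (-0.39 to 0.12). No member was called at an adjusted p under 0.05 together with a ratio of at least 1.5, a rule that called 2.95% of the 305 genes. At any size, the two-sided exact binomial test with Benjamini-Hochberg adjustment over the 305 genes gave an adjusted p of 1.4e-11 for Mir296, 0.0016 for Mir298, 0.0039 for Mir335, 0.069 for Mir483 and 0.45 for Mir675. That is 3 of 5 under 0.05, beside 52.1% of all genes tested.

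This test compares the 2 libraries and covers counting error only. With the edgeR common dispersion as the error, a between-pup coefficient of variation of 11.4%, 0 of 5 passed (adjusted p = 0.999 for each). That rule called 0.328% of the 305 genes. Its dispersion was estimated from the same 2 libraries, taken as replicates. The difference under test therefore sets the error, so little could pass and the result is not independent evidence on the members. The median absolute log2 ratio of the 5 genes was 0.13, beside 0.17 over all genes tested. Mir296 and Mir298 had ratios above 0, and Mir483 and Mir675 had ratios below 0, with the interval of Mir675 including 0. These signs were the same in all 5 alternatives tried, though Mir298 fell to 0.035 with total counts. Of these alternatives, edgeR kept the TMM sizes and the others rescaled these genes together. The sign of Mir335 turned with DESeq2 size factors (log2 ratio 0.00043). Whether genes of a locus vary together was not tested. Scaling by total counts in place of TMM moved the median of all genes to -0.13.

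**Figure D4:**
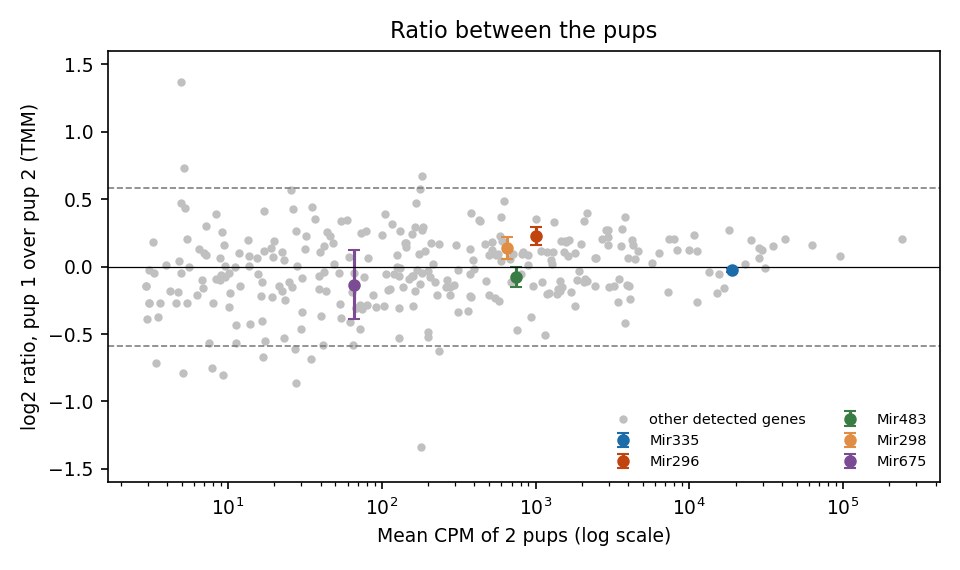
Log2 ratio of pup 1 over pup 2 after TMM scaling against mean CPM (log axis) for the 305 detected genes (grey), with the 5 imprinted genes in colour and exact 95% intervals for counting error, and dashed lines at a ratio of 1.5 either way. All 5 lie between -0.13 and 0.23, inside the dashed lines, where 292 of 305 genes lie.

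The 5 hairpins shared no stretch of 20 nt with any other annotated hairpin. Of the 1894 identifiers matched to the annotation 929 did, but of the 305 detected genes only 70 did, so most detected genes were like the 5 in this. Their base composition varied. The share of G and C was 63.3% in Mir296, 63.1% in Mir675, 58.9% in Mir483, 53.7% in Mir298 and 42.9% in Mir335, where the median of 269 detected genes with a RefSeq hairpin was 50%. Mir335, the most abundant, was the one member below that median.

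The predicted folding energy, computed with RNAfold, was strongest in Mir675. It came to -56 kcal/mol, or -0.667 kcal/mol per nt, and 98.9% of the 269 detected genes had a weaker value per nt. Mir296 (-0.547), Mir298 (-0.521), Mir483 (-0.463) and Mir335 (-0.452) followed, all beyond the median of -0.435. The gene with the strongest predicted hairpin per nt was the least abundant of the 5. Its hairpin had 76.2% of bases paired, within the members' range of 73.5% to 78.5%. These energies describe the annotated sequences and were not tested against the counts.

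**Figure D5:**
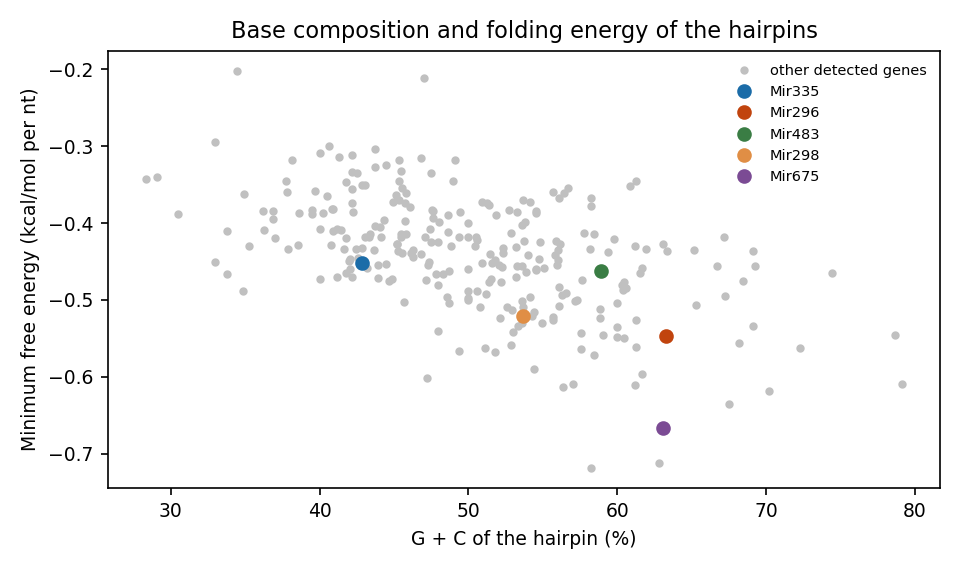
Predicted minimum free energy per nt against the G and C share of the hairpin for the 269 detected genes with a RefSeq hairpin (grey) and the 5 imprinted genes (colour). Mir675 lies lowest of the 5 at -0.667 kcal/mol per nt, and Mir335 lies furthest left at 42.9%.

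The other imprinted miRNA genes give the setting of these levels. Between Dlk1 and Dio3 the annotation places 59 miRNA genes of the tables, of which 44 were detected. The median mean level was 746 CPM over the 5 genes and 72.8 CPM over these 59, of which 9 had no count in either pup. It was 0 CPM over all identifiers and 166 CPM over the detected genes, among which all 5 are. In summed counts, the 5 genes held 2.15% ± 0.118 (SD, n = 2) and the Dlk1-Dio3 genes 3.99% ± 0.162, a log2 ratio of -0.89 ± 0.14, or 0.539. Mir335 alone, at 19056 CPM, was above Mir411, the highest Dlk1-Dio3 gene (7979 ± 399 CPM). Mir411 has 20 nt or more in common with a second annotated hairpin, so reads of it may be missing from its count. Without Mir335 the other 4 genes summed to 0.0619 of the Dlk1-Dio3 counts, a log2 ratio of -4.01 ± 0.06.

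Within Sfmbt2, a gene imprinted in mouse placenta whose intron carries a repeated miRNA cluster, 8 of 107 genes were detected. All 107 together summed to 0.198% ± 0.0136. Their highest member was Mir467d at 608 ± 26.9 CPM. Of the 107, 105 have 20 nt or more in common with a second hairpin, whereas 0 of the 5 genes do. Mir184, which lies near the imprinted gene Rasgrf1, had 8 counts in pup 1 and 11 in pup 2 and missed the detection minimum. These sets were found by position in the annotation and are described by counts and medians with no test.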

How the data were processed

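MicroRNA-seq libraries of 2 newborn mouse stomachs were compared as 1 group. The authors deposited raw read counts per miRNA gene without normalization, 1 table per library. The accompanying description files name assembly mm10 and annotation release M4. Neither an aligner nor a counter is named there or in the labels. Own-strand counts (the strand column with the larger total) were divided by their total, without the rows that name no gene. Those rows were unmapped (8.70% and 8.94% of table reads in pups 1 and 2), multimapping (26.0% and 25.7%) and outside genes (1.78% and 1.70%). A count of 0 allows up to 0.672 and 0.868 CPM (3 counts). PCR reads are not independent molecules, so intervals cover counting error only.

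Positions came from GENCODE M21 (GRCm38) and sequences from RefSeq (GRCm38.p6). Of 1973 identifiers 1894 matched. Matches elsewhere in the genome were not searched. The pups were compared with an exact binomial test on TMM sizes (edgeR 4.0.16). This test was tested on simulated data with counting error only, so its behaviour under a spread between pups was not tested. DESeq2 1.42.0 gave alternative size factors, and RNAfold 2.7.2 gave folding energies. R 4.3.3 and Python 3.11.15 with scipy 1.17.1 were used. No contrast between conditions exists, so no count model was fitted between groups.

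The 5 genes and the lists were chosen with earlier results of these data known. All 5 members were named, with the 3 genes of nearest level to each, the highest gene of each comparison list, the tissue markers and the genes sharing a seed. Mir7646 and the other partners over bases 2 to 7, and Gm27591, fall outside this rule and were chosen once their values were known.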

Additional observations from a re-analysis of the deposited data

How the results depend on the processing

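Of 140 values recomputed for 24 results, 108 stayed within the spread between pups or kept their sign and side of the threshold, 30 moved and 2 changed sign. With 2 pups, leaving either out always keeps a mean level, a share or a ratio between members within the SD of the pups. Library scaling cannot move the share of Mir335 in the members' sum. Lower minimums, or leaving out a pup, cannot lower the number of members detected. The 108 thus include values that could not have moved. The number of detected members was 5 at minimums of 1, 5 and 50 counts and without either pup. No member was called between the pups under any of the 5 alternatives, which called from 0.328% (edgeR) to 5.25% (total counts) of all genes tested. At such shares, 5 genes with none called are no trait of the members. No paired analysis was possible because the series has 1 group, and the ratios between pups cannot be had without either of them. The choice of denominator moved the levels most. Per 1000000 of all table reads the means were 11847 for Mir335, 622 for Mir296, 464 for Mir483, 409 for Mir298 and 41.1 for Mir675, and the summed share was 1.34%. With a total without Mir143, an alternative added for the 5 levels after seeing the data, they were 25126, 1321, 984, 867 and 87.1 CPM, with a share of 2.84%. The share was 2.34% among genes without a shared stretch and 0.252% without Mir335, a setting also added after seeing the data. On both strands Mir298 stood at 643 CPM. Ranks on both strands were 91 for Mir296, 101 for Mir483, 106 for Mir298 and 203 for Mir675. Among genes without a shared stretch they were 10 for Mir335, 74 for Mir296, 81 for Mir483, 84 for Mir298 and 153 for Mir675. Leaving out either pup gave ranks of 12 to 13 for Mir335, 94 to 95 for Mir483, 97 to 98 for Mir298 and 191 to 192 for Mir675. Per nt of the hairpin, the log2 ratio was 3.94 for Mir335 over Mir296 and 0.35 for Mir483 over Mir298. The pup ratio of Mir335 changed sign with DESeq2 size factors (0.00043) and with a minimum of 1 count (0.0011). For a member's ratio, both settings changed only the library scale, which moves all 5 ratios together, and the TMM ratio of Mir335 lay near 0 (-0.02). Why the scales differed was not tested.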
